A study of Mus musculus with 472 samples.

Results

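The cells described here are patched mouse retinal ganglion cells that carried both Col25a1 and Cdh6, each at 10 counts or more per 1000000 gene counts (CPM). They were chosen by these measured levels alone. The rule was met by 50 cells, which is 10.6% of all cells in the series with an exact 95% interval of 7.97% to 13.7%. They are called double-positive cells below, and all remaining cells are called other cells. Among the other cells, 24.6% carried Cdh6 alone, 3.55% (15 cells) carried Col25a1 alone and the rest carried neither. All cells, double-positive and other, came from C57BL/6J mice of 7 to 9 weeks with no genetic change or treatment named. Each cell was recorded under blue and green spots of light in a flat-mounted retina, its content was drawn into the pipette, and the RNA was amplified by Smart-seq2, which copies whole transcripts and adds no molecular barcodes. No recording entered the comparisons, so direction selectivity itself was not measured. The labels name no animal, so all cells count as 1 sample, no difference between cells was tested, and intervals cover counting error only.

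ON-OFF direction-selective ganglion cells fire when a bright or dark edge moves in a preferred direction and stay nearly silent for the opposite one. Their dendrites run in both cholinergic layers of the retina, where starburst amacrine cells excite them with acetylcholine and inhibit them asymmetrically with GABA. In mouse, the neuropeptide CART, encoded by Cartpt, labels many of these cells, and Col25a1, Cdh6 and Mmp17 have been described in sets of them that prefer different directions. Col25a1 encodes a transmembrane collagen, Cdh6 a classical cadherin of cell adhesion, and Mmp17 a membrane-anchored metalloproteinase.

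The start regions of these genes give the results a sequence context. In RefSeq start windows of the GRCm38.p6 build, 14 of 17 genes searched had an entry: the rule genes and the 15 genes named as higher below. The windows were read over the 250 bases before the RefSeq start for a pair of motifs picked after the windows had been read. The cyclic AMP response element, TGACGTCA, lay before the RefSeq start of Cartpt and Scg2, and the octamer, ATTTGCAT on the same strand or ATGCAAAT on the other, before that of Col25a1 and Pcdh8. The gene spans of the GENCODE annotation used for positions in the rest of the text start further upstream for Cartpt, Scg2 and Col25a1, so there these stretches lie inside the annotated gene, and only that of Pcdh8 lies before it. Over all 32851 windows of the same length, 1.55% held the first motif and 1.60% the second, so each match describes letters and not a bound site. Each stretch of 30 bases is printed on the strand of its gene, with the motif in capitals.
Cartpt, chr13:99900777-99900806, minus strand: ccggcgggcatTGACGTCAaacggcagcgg
Scg2, chr1:79440076-79440105, minus strand: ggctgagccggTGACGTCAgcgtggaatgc
Col25a1, chr3:130180667-130180696, plus strand: ttgctgtagctATTTGCATatattatgcta
Pcdh8, chr14:79771341-79771370, minus strand: cccttccagtgATTTGCATatcggcagcta
The motif begins 68 bases before the RefSeq start of Scg2 and 47 before that of Pcdh8.

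The rule genes are given as a description, since they chose the cells. In double-positive cells Col25a1 (mm10, chromosome 3, 130131501 to 130599877) ran from 11.03 to 790.3 CPM with a median of 77.9 CPM, and in other cells it ran from 0 to 62.5 CPM with a median of 0. Cdh6 (chromosome 15, 13028701 to 13173675) ran from 16.2 to 1227 CPM in double-positive cells with a median of 153.9 CPM, and from 0 to 854 CPM in other cells with a median of 0.125 CPM. The overlap of these genes was uneven: 76.9% of the 65 Col25a1-positive cells also carried Cdh6, while 32.5% of the Cdh6-positive cells also carried Col25a1. Just inside the limit, the 4 lowest Col25a1 values were 11.03, 11.07, 11.98 and 12.02 CPM, and the lowest Cdh6 value was 16.2 CPM. Just outside it stood Cdh6-positive cells with Col25a1 at 9.29, 9.16, 8.84 and 8.44 CPM, and a Col25a1-positive cell with Cdh6 at 9.89 CPM. Inside the limit, 8 of the 50 double-positive cells had Col25a1 under 20 CPM and 2 had Cdh6 under 20 CPM. Outside it, 7 Cdh6-positive cells had Col25a1 at 5 to 10 CPM and 82 had none at all. The same rule took 60 cells at a limit of 5 CPM and 41 at 20 CPM.

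**Figure D1:**
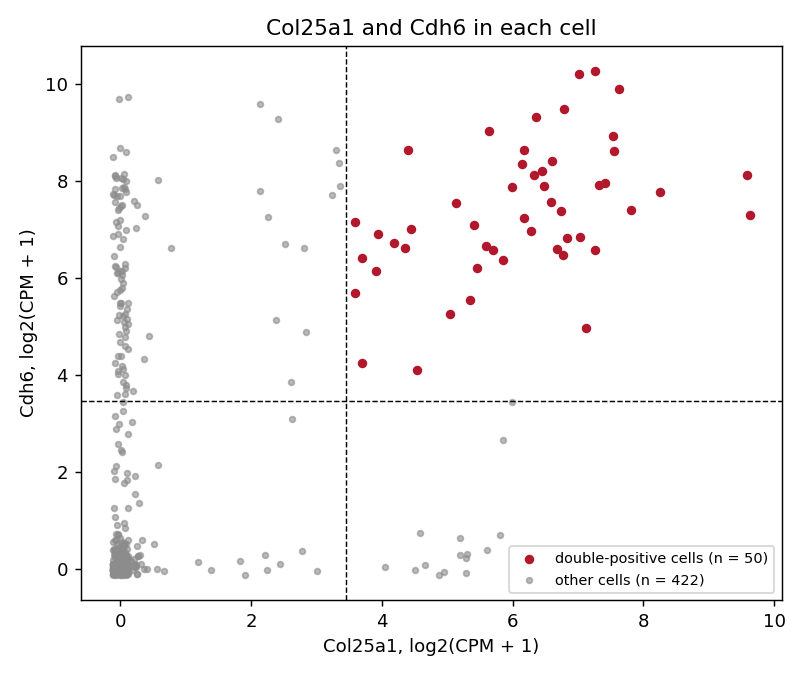
Col25a1 (horizontal) and Cdh6 (vertical) in every cell of the series, as log2(CPM + 1), with a little random scatter added to values of 0 only; dashed lines mark 10 CPM. The 50 double-positive cells fill the upper right corner, and most other cells lie at or near 0 for Col25a1.

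Double-positive cells were found in all 5 groups of library names, which were taken as sequencing runs and are called A to E here. They were 31 cells or 13.2% of run A, 7 of 98 in B, 5 of 62 in C, 6 of 59 in D and 1 of 19 in E. Depth was alike, with a median of 5181627 gene counts in double-positive cells and 5184792.5 in other cells. The number of genes at 10 CPM or more (positive genes) was higher in double-positive cells, with a median of 6045 against 5474 in other cells, and most of all in run D, where the medians were 5405 and 2734. The 2 ribosomal RNA loci CT010467.1 and AY036118 took a median of 14.7% of counts in double-positive cells and 17.5% in other cells. Because more genes were detected in the double-positive cells, the main comparison is printed beside one in which other cells were weighted to the double-positive cells' runs and positive genes.

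Cartpt, which the rule did not use, accompanied Col25a1 and Cdh6 in nearly every cell. In double-positive cells it ran from 0.212 to 3123 CPM with a median of 1070.4 CPM, and in other cells from 0 to 5351 CPM with a median of 16.3 CPM. The groups overlapped, but 46 of 50 double-positive cells were positive (92%, 80.8% to 97.8%) against 54.98% of other cells (50.1% to 59.8%). By run, the share of positive double-positive cells was 93.5% in A, 85.7% in B, 100% in C and 83.3% in D, against 50.7%, 60.4%, 52.6% and 58.5% of the other cells of those runs. Either rule gene alone went with a share between these, 75.96% of cells with Cdh6 alone and 80% of cells with Col25a1 alone, against 46.5% of cells with neither. Mmp17 was sparse: 9 of 50 double-positive cells were positive (18%, 8.58% to 31.4%) against 20 other cells (4.74%, 2.92% to 7.22%), and its median was 0 CPM in both groups. Col25a1 and Cdh6 chose the cells, so they add nothing to the label direction-selective-like. Beyond the rule the label rests on Cartpt, which was also positive in 54.98% of other cells. Mmp17 was at 0 or under 10 CPM in 41 of 50 cells. The excess of Mmp17-positive cells, 13.3 percentage points, was 0.731 points with every limit set at 50 CPM and 3.45 points without cells with 3 or more bipolar cell markers. Against only the other cells with Cdh6, the excess of Cartpt-positive cells was 16.04 points, beside 37.02 points against all other cells.

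Across genes, double-positive cells differed from other cells far more often upwards. A gene is called higher or lower here when its mean log2(CPM + 1) in double-positive cells was at least 1 above or below that in other cells. The difference also had to have the same sign in each of runs A, B, C and D, the runs with 5 or more double-positive cells. Among 11147 genes positive in at least 10% of all cells, 686 were higher (6.15%) and 12 were lower (0.108%), so 98.3% of the called genes were higher. Against the weighted other cells 1.55% of the tested genes were higher and 1.03% lower, so 60.1% of the called genes were higher. All 12 genes lower in the first comparison were lower in the second. The median difference over all tested genes was 0.38 against all other cells and -0.001 against the weighted ones, so a difference below is to be read against these values. Leaving out a run also moved the share of higher genes, to 11.7% without run A and 11.01% without run C. The sign in the run left out was then no longer asked.

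**Figure D2:**
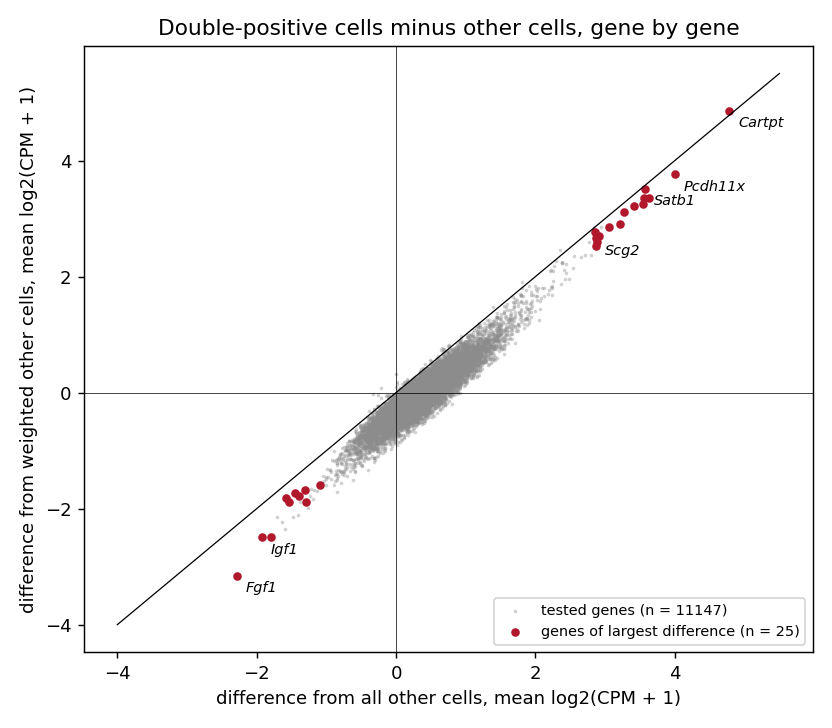
Difference in mean log2(CPM + 1), double-positive minus all other cells (horizontal) and minus weighted other cells (vertical), for 11147 tested genes (grey) and the 25 genes of largest difference that were called and are no unnamed gene models, 15 higher and 10 lower (red), with a line of equality. Most grey points lie below the line, while Cartpt, at 4.78 and 4.85, lies close to it and Fgf1, at -2.29 and -3.16, lies below it.

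Transcription factors of ganglion cell classes stood among the leading genes. Satb1, a chromatin organiser described in mouse direction-selective cells, ran from 0 to 708 CPM in double-positive cells with a median of 162.05 CPM, against 0 to 1189.7 CPM in other cells with a median of 0.77 CPM. It was positive in 40 of 50 double-positive cells (80%, 66.3% to 89.97%) and 37.2% of other cells (32.6% to 42.01%), a difference in mean log2(CPM + 1) of 3.58. That difference was 4.72 in run A, 1.78 in B, 1.14 in C and 3.35 in D. It was -2.65 in run E with its 1 double-positive cell, and 1.75 without run A. Tfap2d, of the AP-2 family, had a median of 87.5 CPM in double-positive cells and 0.17 CPM in other cells, and was positive in 80% against 29.6%. The zinc finger gene Bnc2 had a median of 56.7 CPM in double-positive cells and 0 in other cells, and was positive in 68% against 17.8%. In the whole list, 6 of 31 tested factors were higher, beside 6.15% of all tested genes, among them Ebf1 and Barhl2 beside these. Ebf1 was positive in 50 of 50 double-positive cells and 83.6% of other cells, and Barhl2 in 64% and 33.6%. Meis2, a TALE homeobox gene, was the 1 lower factor, positive in 50% of double-positive cells and 60.2% of other cells with a difference of -1.09. Against weighted other cells, where 1.55% of all tested genes were higher, 5 factors were, and Ebf1 was not, at a difference of 0.76. Without run A the difference of Tfap2d was 2.08, beside 3.41 with it. In run A alone Satb1 was positive in 90.3% of double-positive cells and 35.96% of other cells, and Tfap2d in 93.5% and 31.03%. Runs B, C and D hold 5 to 7 double-positive cells each, and there Satb1 was positive in 71.4%, 60% and 66.7% of them, against 45.1%, 45.6% and 18.9% of the other cells.

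**Figure D3:**
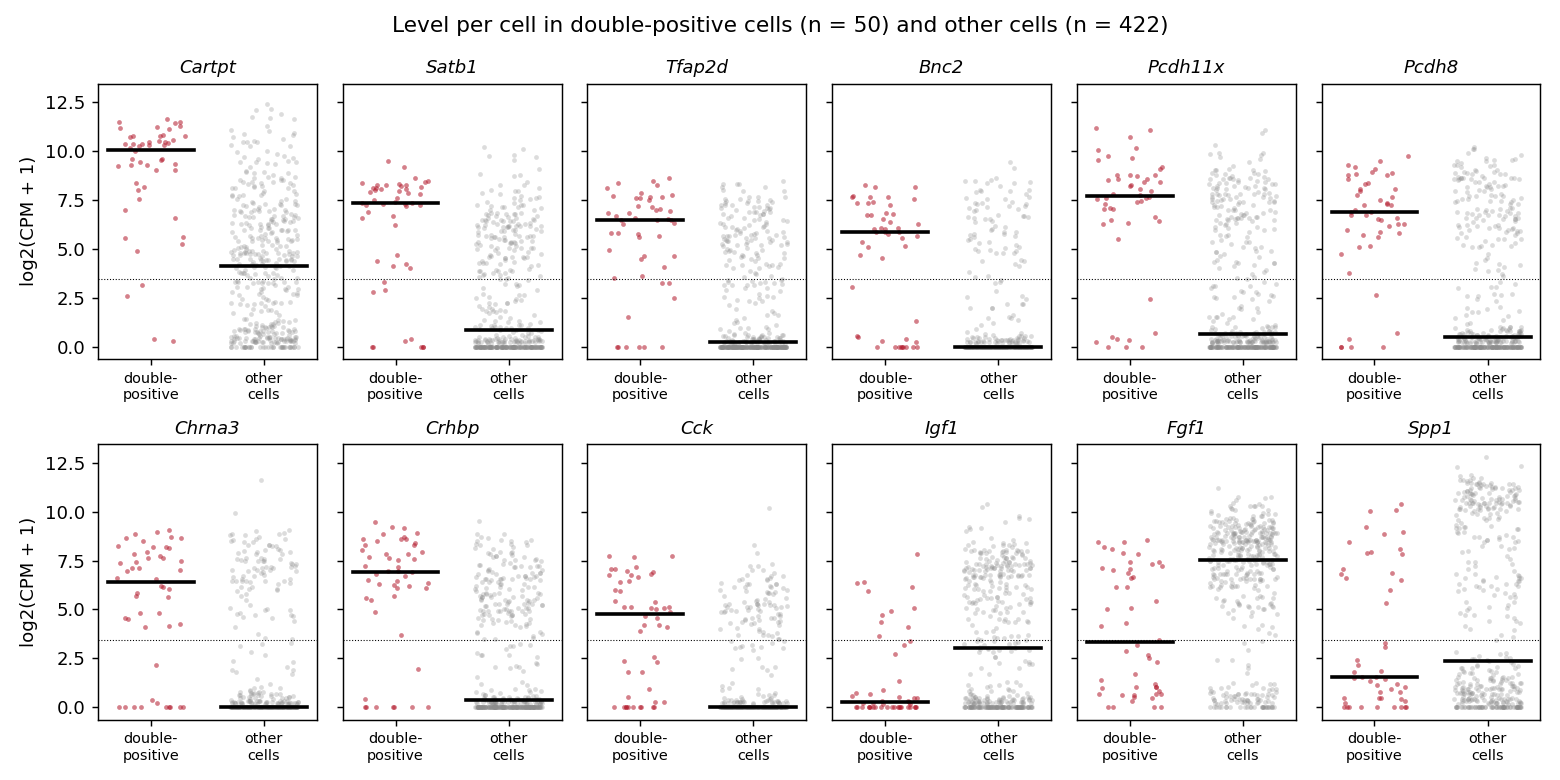
Level per cell, as log2(CPM + 1), of 12 genes in 50 double-positive cells (red, left) and in other cells (grey, right); black bars are medians and the thin line is 10 CPM. Cartpt, Satb1, Tfap2d, Bnc2, Pcdh11x, Pcdh8, Chrna3, Crhbp and Cck have most double-positive cells above the line, and Igf1, Fgf1 and Spp1 have their high values mainly among other cells.

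Delta protocadherins, adhesion proteins that sort neurites and synapses, gave the list with the largest share of higher genes among lists with 5 or more tested genes: 5 of 9 tested members were higher in each comparison and none was lower. Their median difference was 1.52, and 1.02 against weighted other cells. Over all tested genes 6.15% were higher, and 1.55% against weighted other cells. Pcdh11x, on the X chromosome, ran from 0 to 2317 CPM in double-positive cells with a median of 206.9 CPM, against 0 to 2151 CPM and a median of 0.553 CPM in other cells. The ranges overlapped in full, but 82% of double-positive cells were positive against 35.8% of other cells. Pcdh8 had a median of 117.5 CPM in double-positive cells and 0.419 CPM in other cells, with 86% and 33.9% positive. Its difference was 3.63, but 2.31 without run A and 1.002 against only the other cells with Cdh6. In run E, with 1 double-positive cell, the difference of Pcdh8 was -2.62. Pcdh10 was positive in 76% of double-positive cells and 39.6% of other cells, Pcdh1 in 60% and 34.1%, and Pcdh7 in 82% and 61.6%. Of classical cadherins, the family of Cdh6, only Cdh2 of 9 tested members was higher, with a difference of 1.28 that was 0.80 against weighted other cells. Among contactins and their partners, Cntn5 and Cntnap1 were higher, 2 of 12 tested, and Cntnap1 was not against weighted other cells. Cntn5, an adhesion protein of direction-selective circuits in mouse, was positive in 58% of double-positive cells and 26.5% of other cells.

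Of 13 tested genes listed for direction-selective cells, 5 were higher (Fstl4, Satb1, Cntn5, Calb2 and Plxna2) and none was lower, beside 6.15% and 0.108% of all tested genes. Fstl4, a secreted follistatin-like protein used as a transgenic marker of such cells in mouse, was positive in 46% of double-positive cells (31.8% to 60.7%) and 19.7% of other cells (15.98% to 23.8%). Calb2, which encodes the calcium-binding protein calretinin, was positive in all 50 double-positive cells, from 80.8 to 5101 CPM, and in 90.8% of other cells. Its median was 1158 CPM in double-positive cells and 662 CPM in other cells. Against weighted other cells 4 of the list were higher, without Plxna2, beside 1.55% of all tested genes. Drd4, a dopamine receptor gene used in mouse to mark cells of a single preferred direction, was positive in 20% of double-positive cells and 21.1% of other cells. Trhr, which encodes the receptor for thyrotropin-releasing hormone and marks cells of the same direction, was positive in 1 of 50 double-positive cells and 4.03% of other cells. Hoxd10 was listed at 0 in every cell.

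Receptors for the transmitters of starburst amacrine cells were next. Chrna3, a nicotinic receptor alpha subunit, ran from 0 to 528 CPM in double-positive cells with a median of 84.1 CPM, against 0 to 3136 CPM and a median of 0 in other cells. It was positive in 38 of 50 double-positive cells (76%, 61.8% to 86.9%) and 23.2% of other cells (19.3% to 27.6%). Its difference was positive in each of runs A to D, as a call requires, and -1.78 in run E with its 1 double-positive cell. Chrna3 was the 1 higher gene of 7 tested nicotinic and muscarinic receptor genes, beside 6.15% of all tested genes. Chrna6, another alpha subunit, was positive in 86% of double-positive cells and 90.5% of other cells, and the beta subunit Chrnb3 in 96% and 87.2%. Of 17 tested GABA and glycine receptor genes, 5 were higher, beside the same 6.15% of all tested genes. Among them were the GABA-A subunits Gabra4, Gabrb1 and Gabrg3 and the GABA-B subunit Gabbr2. Gabrb1 was positive in 68% of double-positive cells and 28.2% of other cells, with medians of 29.4 and 0.152 CPM. Gabrg3 was positive in 62% of double-positive cells and 29.1% of other cells, and Gabra4 in 50% and 22.99%. Gabra4 and Gabrb1 abut on chromosome 5 and their annotated spans overlap by a short stretch. Against weighted other cells 4 stayed above the limit, without Gabbr2, beside 1.55% of all tested genes. There the glycine receptor subunit Glra1 was lower, beside 1.03% of all tested genes. Glra1 was positive in 10% of double-positive cells and 26.3% of other cells. Gabra2, another GABA-A subunit, was positive in 90% of double-positive cells and 61.6% of other cells, but its difference was negative in run C and it was not called.

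Peptide genes of the fixed list are given here with Crhbp and Scg2, which belong to no such list and were added because they were among the 15 genes of largest positive difference. Crhbp, which encodes a binding protein for corticotropin-releasing hormone, had a median of 120.9 CPM in double-positive cells and 0.294 CPM in other cells, with 82% and 37.9% positive. Scg2, a secretogranin of dense-core vesicles, was positive in 49 of 50 double-positive cells and 77.7% of other cells, with medians of 795 and 159.4 CPM. Cck, the cholecystokinin gene, ran from 0 to 211.4 CPM in double-positive cells and from 0 to 1165 CPM in other cells, and was positive in 62% against 22.04%. Its difference was 2.55 in all and had the same sign in all 5 runs. Among the 9 tested neuropeptide genes, Cartpt and Cck were higher and Igf1 was lower, beside 6.15% and 0.108% of all tested genes. Gal, the galanin gene, was also lower against weighted other cells, where 1.03% of all tested genes were. It was positive in 2 of 50 double-positive cells and 19.9% of other cells.

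The other genes with the largest positive differences were Dbpht2 (3.21), Ak5 (3.05), Camkv (2.92), Rnf112 (2.89), Sh3bp4 (2.86) and Thrb (2.85). Rnf112 was 0.32 in run C, 1.70 without run A and 1.36 against only the other cells with Cdh6. Ak5, an adenylate kinase, was positive in 60% of double-positive cells and 16.8% of other cells. Thrb, a thyroid hormone receptor, was positive in 70% of double-positive cells and 32.2% of other cells, and Camkv, a kinase-like vesicle protein, in 94% and 54.3%. Besides named genes, 29 of the 686 higher genes were unnamed gene models.

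Guidance and channel genes were called in smaller shares. Of 35 tested axon guidance genes, 6 were higher: Slit2, Plxna2, Sema3e, Epha5, Tenm2 and Tenm3. Sema3e, a secreted semaphorin, was positive in 78% of double-positive cells and 42.4% of other cells, with medians of 85.99 and 2.87 CPM, and the teneurin Tenm2 in 86% and 56.2%. Plxna2 and Tenm3 were not called against weighted other cells, where 4 of the list were higher, beside 1.55% of all tested genes. Of 33 tested potassium channel genes 5 were higher (Kcnip1, Kcnh1, Kcnma1, Kcnt1 and Kcns2), but 2 against weighted other cells. There Kcnk1, a two-pore channel gene, was lower, beside 1.03% of all tested genes. Among sodium channels Scn3b was the 1 higher gene of 9, and Cacna1c was 1 of 2 higher genes in the list of 14 for calcium and HCN channels. Of 16 glutamate receptor genes 2 were higher, Grin1 among them, and neither was against weighted other cells. Shares of 2 of 16 or 5 of 33 stand nearer the 6.15% of all tested genes than 5 of 9 does.

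Lower genes were 0.108% of those tested against all other cells and 1.03% against weighted other cells. Fgf1, a fibroblast growth factor gene, ran from 0 to 368.3 CPM in double-positive cells with a median of 9.04 CPM, against 0 to 2332 CPM and a median of 180.5 CPM in other cells. It was positive in 25 of 50 double-positive cells (50%, 35.5% to 64.5%) and 76.5% of other cells (72.2% to 80.5%), with a difference of -2.29. Igf1, an insulin-like growth factor gene found in some melanopsin cells, was positive in 11 of 50 double-positive cells (22%) and 47.6% of other cells. The difference for Igf1 was -1.93: it was -2.57 in run A, -1.53 in B, -1.71 in C and -0.93 in D, 2.44 in run E with its 1 double-positive cell, and -1.21 without run A. Gprc5b, an orphan receptor gene, was positive in 36% of double-positive cells and 57.8% of other cells, Sorcs1, a sorting receptor gene, in 18% and 45.5%, and Etv1, an ETS transcription factor gene, in 16% and 34.8%. Further genes with large negative differences were Galntl6 (-1.58), Lpl (-1.40), A2ml1 (-1.31) and Meis2. Without run A, Gprc5b was at -1.03, and Galntl6 and Lpl kept their sign but differed by less than 1. Without cells with 3 or more bipolar markers, A2ml1 was at -2.10 and Meis2 at -1.80.

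Markers of alpha ganglion cells, which have large cell bodies, gave 0 calls among 6 tested genes in either direction. Over all tested genes 6.15% were higher and 0.108% lower, so 0 calls in so short a list does not set these markers apart. Their median difference was -0.55, and -1.01 against weighted other cells, beside 0.38 and -0.001 over all tested genes. Spp1, which encodes osteopontin, ran from 0 to 1324 CPM in double-positive cells with a median of 1.90 CPM, against 0 to 7132 CPM and a median of 4.09 CPM in other cells. The pair Spp1 and Kcng4 was present in 18% of double-positive cells (8.58% to 31.4%) and 22.99% of other cells (19.1% to 27.3%). Sets that mark other classes were not missing from the double-positive cells: 7 of 50 carried Opn4 or Eomes against 16.1% of other cells, and 5 of 50 carried Tbr1 against 17.5%. Foxp2, or Foxp1 with Irx4, was present in 8% of double-positive cells and 11.4% of other cells, and Irx3 without Eomes in 18% and 11.8%. Mmp9 with Htr1d was present in 21 of 50 double-positive cells (42%, 28.2% to 56.8%) and 21.1% of other cells (17.3% to 25.3%). Pou4f3, a POU homeobox factor of ganglion cells, was positive in 42% of double-positive cells (28.2% to 56.8%) and 22.3% of other cells (18.4% to 26.6%). These intervals cover counting error only, and whether the groups differ in any of these sets was not tested. Pou4f3 was not called, since its difference was negative in run C, at -1.31. Of 3 tested melanopsin cell genes Igf1 was lower, and of 7 tested genes of small ganglion cells Trarg1 was higher, though not against weighted other cells. Among 12 calcium-binding protein genes Calb2 was the 1 called. No F-RGC marker, T-RGC marker or other transmembrane collagen gene was called, with 3, 3 and 1 tested, too few to read against those shares. Pan-ganglion genes were in place, with 1 of 12, Slc17a6, called higher, though not against weighted other cells, and with Slc17a6 or Rbpms positive in 50 of 50 double-positive cells and 94.3% of other cells.

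**Figure D4:**
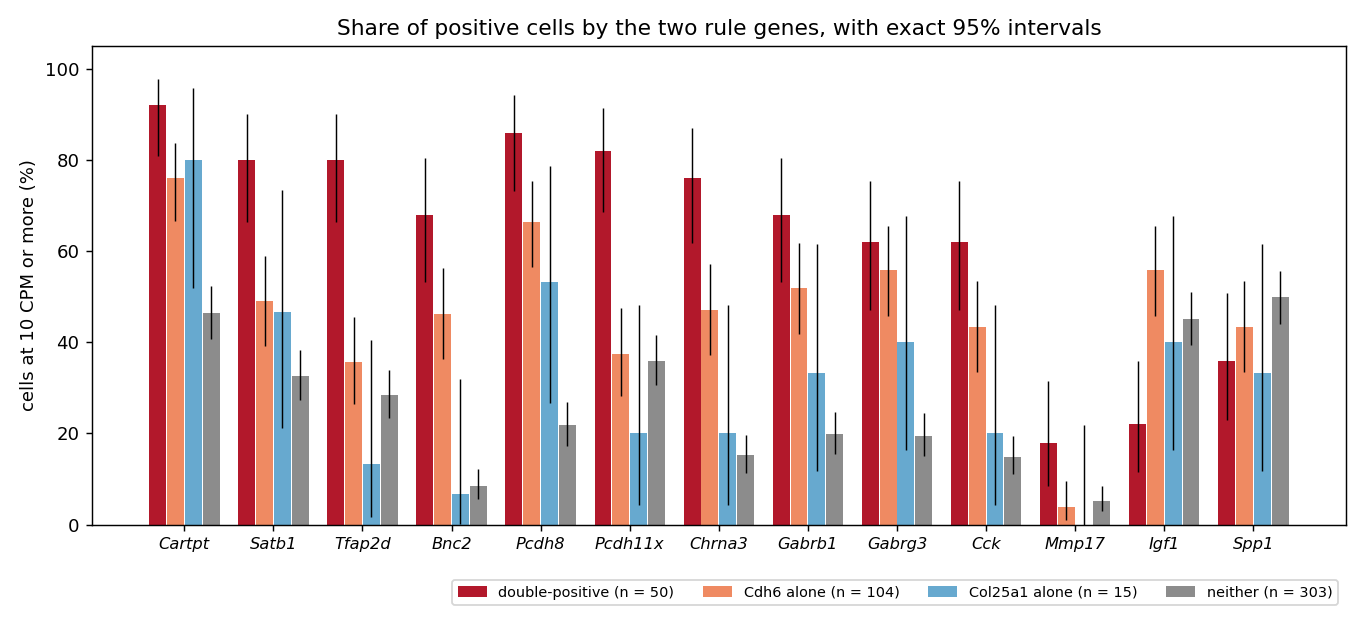
Share of cells at 10 CPM or more for 13 genes in double-positive cells (n = 50), cells with Cdh6 alone, cells with Col25a1 alone (n = 15) and cells with neither; lines are exact 95% intervals. Bnc2 reaches 68% and 46.2% in the groups with Cdh6, against 6.67% and 8.58% in those without.

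The shares differed by which rule gene a cell carried, but these groups also differed in detection and were not weighted for it. The median of positive genes was 5413 in cells with neither and 5755.5 with Cdh6 alone. It was 6016 with Col25a1 alone and 6045 in double-positive cells. Under 3000 positive genes were found in 64 cells with neither, 5 with Cdh6 alone, 2 with Col25a1 alone and 2 double-positive cells. The part of detection in the shares below was not tested. Bnc2 was positive in 68% of double-positive cells, 46.2% of cells with Cdh6 alone (36.3% to 56.2%), 6.67% of cells with Col25a1 alone (0.169% to 31.9%) and 8.58% of cells with neither (5.68% to 12.3%). For Chrna3 the shares of these groups were 76%, 47.1%, 20% and 15.2%, and for Gabrb1 68%, 51.9%, 33.3% and 19.8%. Pcdh8 was positive in 86% of double-positive cells, 66.3% of cells with Cdh6 alone, 53.3% of cells with Col25a1 alone and 21.8% of cells with neither. For Pcdh11x the cells with Cdh6 alone stood near those with neither, at 37.5% and 35.97%, against 82% of double-positive cells. Tfap2d showed the same, at 35.6% of cells with Cdh6 alone and 28.4% of cells with neither, against 80% of double-positive cells. The group with Col25a1 alone holds 15 cells, so its intervals are wide. Against only the other cells with Cdh6, a comparison chosen after the data were seen, 1.58% of the tested genes were higher and 0.610% lower. In that comparison Camkv, Gprc5b, Galntl6, Etv1, Lpl and Meis2 kept their sign but differed by less than 1, and the differences of Chrna3 (1.91), Bnc2 (1.31) and Ak5 (2.02) were smaller by over 1.5 times than against all other cells.

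Among themselves the double-positive cells varied. Cartpt, Satb1, Tfap2d and Bnc2, a set chosen after their values were seen, were all positive in 29 of 50 double-positive cells (58%, 43.2% to 71.8%) and in 12 other cells (2.84%, 1.48% to 4.91%). Of the 41 cells with all 4 genes, 37 carried Cdh6 and 29 carried Col25a1. A further 10 double-positive cells had 3 of the genes, 5 had 2, 4 had 1 and 2 had 0. The 39 cells with 3 or 4 of them comprised 29 from run A, 5 from B, 2 from C and 3 from D, and the 11 with fewer comprised 2 from A, 2 from B, 3 from C, 3 from D and 1 from E. Other genes were unevenly spread over these sets: Pcdh8 was positive in 37 of the 39 cells and 6 of the 11, Pcdh11x in 36 and 5, Chrna3 in 34 and 4, and Mmp9 in 27 and 3. Coch, a secreted protein gene listed for another ganglion cell class, was positive in 6 of the 39 cells and 7 of the 11, and Spp1 in 12 and 6. Run and gene set cannot be told apart in these counts, since run A holds most of the first set.

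**Figure D5:**
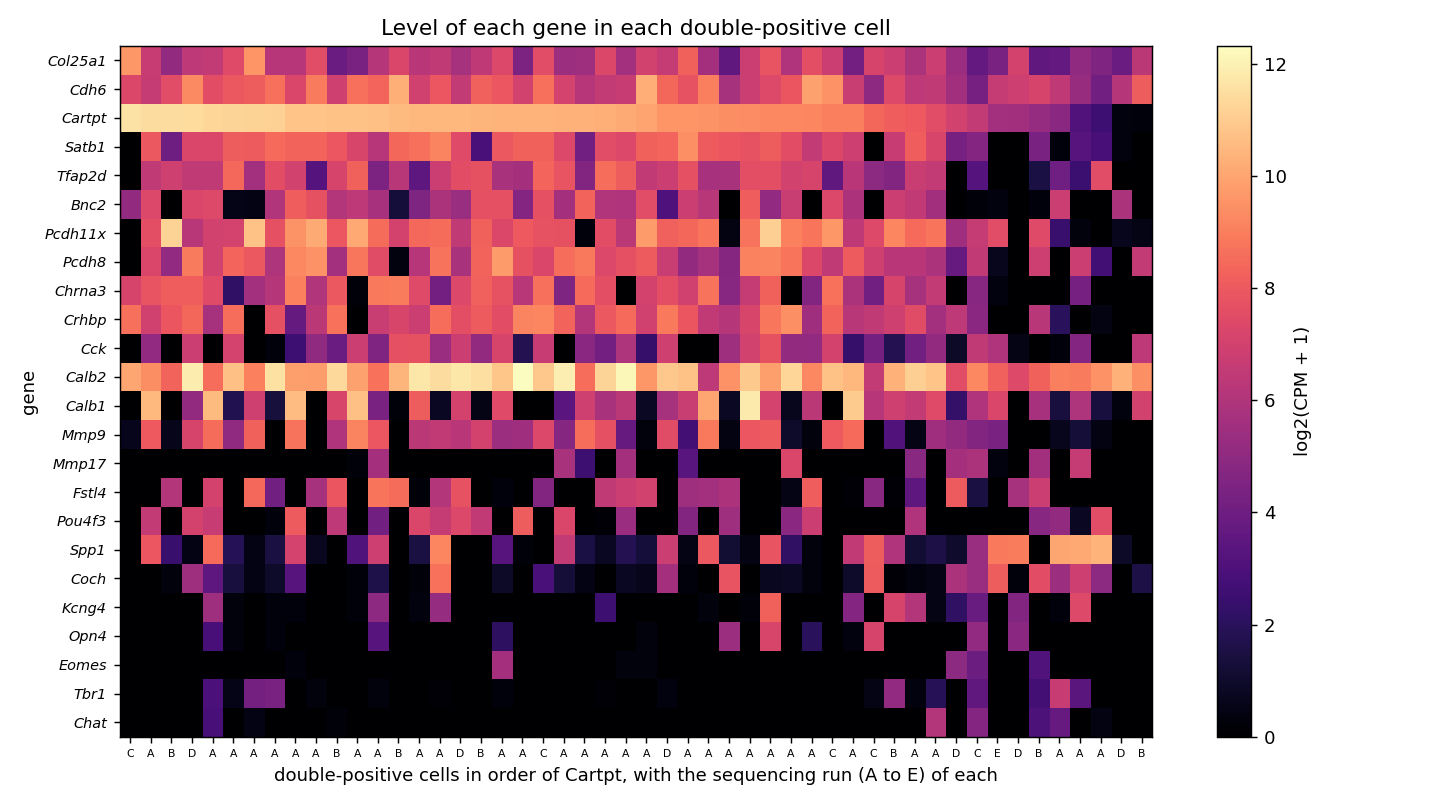
Level of 24 genes, as log2(CPM + 1), in each of 50 double-positive cells in order of Cartpt, highest at the left, with the run letter of each cell below. Satb1, Tfap2d and Chrna3 are low in most cells at the right, where Cartpt is low and Spp1 and Coch have several of their high values. Calb2 is positive in every cell.

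Calb1, which encodes the calcium buffer calbindin, split the cells by level. It was at 1000 CPM or more in 7 double-positive cells, from 1033 to 3545 CPM, and at most 275.4 CPM in the other 43, a limit chosen after the values were seen. All 7 were of run A, where 24 more double-positive cells lay below it, and 30 other cells (7.11%) also passed 1000 CPM. In the 7 cells Mmp9, a secreted metalloproteinase gene, ran from 238.9 to 579 CPM, and in the 24 cells of run A below the limit it ran from 0 to 388.1 CPM, with 13 cells positive. Bnc2 ran from 57.8 to 283.6 CPM in the 7 cells and was positive in 18 of the 24. Fstl4 was positive in 2 of the 7 and 12 of the 24, counts too small to give a direction.

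RNA of other retinal cells was present in both groups. At least 3 of 8 bipolar cell markers were positive in 27 of 50 double-positive cells (54%, 39.3% to 68.2%) and 41.2% of other cells (36.5% to 46.1%), but 2 markers on that list, Isl1 and Prkca, were positive in 88% and 62% of double-positive cells, and Isl1 is also a ganglion cell gene. Summed bipolar markers ran from 0 to 1912 CPM in double-positive cells and from 0 to 2861 CPM in other cells, and the median of Grm6, Otx2 and Cabp5 was 0 in double-positive cells. Amacrine markers reached 3 of 8 in 50% of double-positive cells and 43.1% of other cells, with summed levels of 0.299 to 3483 CPM and 0 to 4201 CPM. Starburst amacrine cells contact direction-selective cells: at least 3 of their 7 markers were positive in 4 of 50 double-positive cells (8%, 2.22% to 19.2%) and 9 other cells (2.13%, 0.980% to 4.01%). Summed starburst markers ran from 0 to 268.2 CPM in double-positive cells and from 0 to 1002 CPM in other cells. Their defining genes Chat and Slc18a3 were at 0 in 42 and 39 of 50 double-positive cells. Chat was positive in 6% of double-positive cells and 7.58% of other cells, and Slc18a3 in 12% and 3.79%. Rod markers reached 3 of 8 in 60% of double-positive cells and 68.7% of other cells, and Muller glia markers in 86% and 78.7%. At least 3 cone markers were positive in 20% of double-positive cells and 9.72% of other cells, and 3 horizontal cell markers in 8% and 15.6%. At least 3 markers of astrocytes, of microglia, of vessels or of erythrocytes were positive in at most 2% of double-positive cells and at most 5.21% of other cells. None of the markers of other cells that passed the filter on low values was called in either direction, but that filter left 1 of 7 starburst markers and 0 of 5 microglia markers. Leaving out every cell with 3 or more bipolar markers left 23 double-positive cells, of which 95.7% were Cartpt-positive against 45.97% of the other cells left, and the 25 genes of largest difference all kept their sign. Those genes had been picked for their differences in these same cells, and the marker count includes Isl1 and Prkca, so bipolar RNA is not singled out. The part of other cell types, bipolar cells included, in the differences above was not tested.

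Immediate early genes, which neurons switch on after activity, were higher for 4 of 10 tested members, Junb, Npas4, Nr4a1 and Dusp1, beside 6.15% of all tested genes, with a median difference of 1.05 beside 0.38 over all tested genes. Against weighted other cells Dusp1 alone was called higher, beside 1.55% of all tested genes, and the median of the list was 0.80 beside -0.001. Npas4 was positive in 30% of double-positive cells (17.9% to 44.6%) and 18.2% of other cells (14.7% to 22.3%). Dusp1, a phosphatase gene, had a median of 254.4 CPM in double-positive cells and 103.3 CPM in other cells.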

How the data were processed

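The table holds 472 cells, of which 50 are double-positive, 104 have Cdh6 alone, 15 have Col25a1 alone and 303 have neither, so other cells number 422. Values are estimated counts for 55450 genes and 92 ERCC spike-ins, as deposited by the authors, and 1.36% of them are not whole. The submitters' processing notes name STAR 2.7.0 and mm10; for the quantification, tool and annotation were not given in the sources used here. All gene IDs are in the mouse GENCODE release M21, which gave the 1-based positions. Smart-seq2 does not mark strand, so overlapping genes cannot be told apart. Counts were rounded and scaled to CPM without spike-ins, and a gene is positive at 10 CPM or more. Runs come from library names: A (234 cells), B, C, D and E were each set by a shared string of letters and digits in those names. Cells were picked singly, so no doublet caller was run. No test was made: shares carry Clopper-Pearson 95% intervals, and differences were read by the size rule given above, leaving out Col25a1 and Cdh6. Weighted other cells matched double-positive cells in runs and bins of positive genes (under 4000, 4000 to 6000, over 6000), giving 173 higher and 115 lower genes, of which 171 and 12 were shared with the unweighted comparison. Named are the 15 higher and 10 lower called genes of largest difference, unnamed gene models aside, and members of 34 lists; a few of these genes are not reported here. The double-positive cells and the lists were chosen with earlier results of these data known. Alternatives changed the CPM limit, depth, cells, scaling, pseudocount, filter and runs. Software: Python 3.11.15 with pandas 2.3.3, numpy 2.4.6, matplotlib 3.10.9 and scipy 1.17.1.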

Additional observations from a re-analysis of the deposited data

Results flagged for a closer look

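Spike-in RNAs, which were outside every comparison, took at most 4.19% of all counts in a double-positive cell and at most 31.1% among other cells, with medians of 0.691% and 0.765%. The value was marked because it is a signal outside the gene table used above.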

How the results depend on the processing

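Cartpt and Mmp17 were more often positive in double-positive cells than in other cells in every setting, though the pseudocount and the filter on low values cannot change these shares. At 50 CPM, Mmp17 was positive in 3.23% of 31 double-positive cells and 2.49% of other cells. The 25 called genes of largest difference all kept their sign under all 18 alternatives. They had been picked in these same cells by size and by sign in runs A to D, so the kept signs add little support. A difference under 1 was found for 1 gene at a 5 CPM limit, for 2 genes, Meis2 among them, with upper quartile scaling, for Galntl6 and Lpl without run A, for 6 genes against Cdh6-positive other cells and for 7 lower genes at a pseudocount of 10. The share of tested genes called was the least stable value. The sign was asked only of runs with 5 or more double-positive cells. Settings that left out a run or held fewer double-positive cells could thus ask it of fewer runs, a looser rule. With the sign not asked at all, 1138 genes were higher and 29 lower by 1 or more, beside 686 and 12 called. Beside 6.15% higher and 0.108% lower, weighting gave 1.55% and 1.03%, a pseudocount of 0.1 gave 14.05% and 0.395%, and a pseudocount of 10 gave 0.852% and 0.0359%. Cells with 3000 or more positive genes gave 3.17% and 0.557%, cells with fewer than 3 bipolar markers 19.97% and 0.706%, and Cdh6-positive other cells alone 1.58% and 0.610%. A limit of 20 CPM gave 9.82% and 0.369%, and 50 CPM gave 17.5% and 1.12%. Thinning to 1000000 gene counts gave 0.178% lower genes and upper quartile scaling 0.0710%. With no filter on low values the shares were 2.32% and 0.0401%, since more genes were tested. Leaving out 1 run gave 6.06% to 11.7% higher and 0.108% to 0.653% lower genes, with 11.7% and 0.653% without run A, 11.01% and 0.242% without run C, 0.170% lower without run B and 0.231% lower without run D. Causes other than the filter were not tested. The share of double-positive cells was 6.57% at 50 CPM and 7.98% to 11.5% without 1 run. The excess of Cartpt-positive cells, 37.02 percentage points, was 46.9 at 20 CPM, 59.1 at 50 CPM, 49.7 without cells of 3 or more bipolar markers, 16.04 against Cdh6-positive other cells and 30.6 to 39.5 without 1 run. The excess of Mmp17, 13.3 points, was 0.731 at 50 CPM, 3.45 without cells of 3 or more bipolar markers and 10.3 to 14.2 without 1 run. No paired analysis was possible because no result comes from a test and replicate numbers only name cells. Depth was alike in both groups, but 50 cells of 1 sample set wide intervals.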
